A study of Mus musculus with 7 samples.

Results

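The promoters of 35 Fanconi anemia and homologous recombination genes, listed by name, were described in hematopoietic stem and progenitor cells of adult mice. The genes were located in GENCODE vM21 for mm10, and each was given the highest fold enrichment of the accessible sites (peaks) that came within 1000 bp of one of its annotated transcription start sites. All 35 genes had such a peak in all 7 libraries, among 22871 genes that did so and 55413 annotated genes in all. Each library was made from 50000 LSK cells by ATAC-Seq, an assay that uses the Tn5 transposase to put sequencing adapters into accessible chromatin. LSK cells are the Lineage-, Sca-1+, c-Kit+ bone marrow fraction that holds stem cells and multipotent progenitors. The 4 WTAkita libraries came from adult offspring of a diabetic pregnancy, that is WT mice born to Ins2 Akita/+ dams, and the 3 Ctrl libraries from adult offspring of a normal pregnancy, born to WT dams. All offspring were WT on the C57/BL6 strain and 8 to 12 weeks old, and in the study's breeding scheme the dams of both groups were fed a high-fat diet before mating. The offspring carry no Akita allele, so the exposure was maternal. Marrow was pooled for sorting, and how many mice contributed to each library was not stated, so the replicate error below is that between libraries and may be technical in part. In a bulk library, fewer cells with an open promoter and a less open promoter in each cell cannot be told apart.

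The Fanconi pathway repairs crosslinks that tie both DNA strands together and block replication. A core complex of FANC proteins acts as a ubiquitin ligase on the FANCI-FANCD2 pair, nucleases then cut the crosslink loose, and the broken strand is rebuilt by homologous recombination, in which resected ends are coated by RPA and BRCA2 and its partners then prepare them to pair with an intact copy. In humans, inherited loss of Fanconi anemia genes causes that disease, with bone marrow failure. Hematopoietic stem cells are among the cells most sensitive to loss of Fanconi anemia genes. The list used here also holds other repair genes, to which these statements do not extend. A promoter peak reports open DNA at a start site and not the amount of transcript.

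Promoter sequences of these genes are shown first because several of them are shared with a neighbouring gene and because the same short motifs recur in them. At Chek2, Fancb and Rpa3 the start site of another protein-coding gene lies a short way upstream on the opposite strand, and the summit of the peak fell between both start sites in all 7 libraries. The stretches between the start sites are printed here from the RefSeq promoter table (GRCm38.p6), 5′ to 3′ on the strand of the named gene, with exact motif matches on either strand in capitals. The Chek2 stretch runs to Hscb over 201 bases at chr5:110839778-110839978, the Fancb stretch to Mospd2 over 216 bases at chrX:164980376-164980591, and the Rpa3 stretch to Umad1 over 114 bases at chr6:8259174-8259287, the last read from the minus strand.
Chek2: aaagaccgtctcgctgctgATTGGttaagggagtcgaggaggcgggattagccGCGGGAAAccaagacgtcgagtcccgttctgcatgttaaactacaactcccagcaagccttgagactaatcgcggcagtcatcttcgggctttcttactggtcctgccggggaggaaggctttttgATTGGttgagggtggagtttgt
Fancb: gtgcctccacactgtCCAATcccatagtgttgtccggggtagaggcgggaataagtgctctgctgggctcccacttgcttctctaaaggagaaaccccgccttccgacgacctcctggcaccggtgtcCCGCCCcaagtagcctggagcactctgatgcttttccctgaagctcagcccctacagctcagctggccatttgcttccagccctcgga
Rpa3: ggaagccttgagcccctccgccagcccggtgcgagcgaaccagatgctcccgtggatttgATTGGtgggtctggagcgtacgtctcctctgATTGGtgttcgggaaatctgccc
The capitals mark CCAAT (the box bound by NF-Y, ATTGG when read from the other strand), TTTCCCGC (an E2F-type element, in Chek2 as its reverse complement) and GGGCGG (an SP1-type GC box, in Fancb as its reverse complement). All 3 stretches held at least 1 CCAAT, and Chek2 and Rpa3 held 2 each.

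Fanca and Fancm are shown as the extremes of fold enrichment among genes whose peak summit lay within 250 bp of the RefSeq start in every library. The 250 bases before the start are printed for Fanca at chr8:123318577-123318826 on the minus strand and for Fancm at chr12:65075353-65075602 on the plus strand.
Fanca: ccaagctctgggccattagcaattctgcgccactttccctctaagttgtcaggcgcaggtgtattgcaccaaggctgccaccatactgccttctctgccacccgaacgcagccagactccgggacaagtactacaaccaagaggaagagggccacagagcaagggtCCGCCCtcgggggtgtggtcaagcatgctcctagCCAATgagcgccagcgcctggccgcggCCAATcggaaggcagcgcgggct
Fancm: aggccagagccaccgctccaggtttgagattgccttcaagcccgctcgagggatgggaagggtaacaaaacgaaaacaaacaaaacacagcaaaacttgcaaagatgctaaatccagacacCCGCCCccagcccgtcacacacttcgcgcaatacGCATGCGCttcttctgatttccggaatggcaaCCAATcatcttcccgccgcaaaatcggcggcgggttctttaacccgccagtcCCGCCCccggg
Capitals mark the same motifs, and in Fancm also GCATGCGC, an NRF1-type element. The most accessible of this pair, Fanca, held 3 matches and the least accessible, Fancm, held 4, so the count of these letters did not order the pair.

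Estimated depth varied between libraries, with ranges that overlapped between the groups. Each list held 137963 to 151552 peaks, and the tags behind them, estimated from the background used by the peak caller, came to 49300000, 53100000, 40500000 and 44800000 in WTAkita and 47800000, 51900000 and 37600000 in Ctrl. The highest summit within the window of one of the 35 genes held between 92 and 804 tags. Median fold enrichment over a list was lowest in WTAkita replicates 1 and 2 and in Ctrl replicate 1, and raw values follow this: of the 35 promoters, 23 were lowest in WTAkita replicate 1 and 8 in WTAkita replicate 2. Promoters of all 10 LSK marker genes, Kit and Ly6a (Sca-1) included, had a peak in every library. Of 10 mature lineage markers, 5 had one in every library and 8 in at least 1 library, while Cd8a and Ms4a1 had none.

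As a group the promoters stood high among accessible promoters. Within each library a gene was ranked by fold enrichment among all genes with a promoter peak, and the median over the 7 libraries was taken as its percentile. The 35 genes had a median percentile of 73.0, beside 52.7 over all genes tested and 58.3 over the 15825 protein-coding genes tested. All but Fancm ranked above the 50th percentile (34 of 35) and 9 ranked above the 90th. Of all 22871 genes tested, 12056 ranked above the 50th and 2358 above the 90th, and of the 15825 protein-coding genes 9383 and 1875. The count of 34 was 32 with a window of 500 bp, 35 with 2000 bp and 29 by the summit nearest a start. These ranks use the peaks that define the genes' values and are given as a description, without a test. In single libraries the median of the 35 genes was 76.6, 75.3, 73.3 and 74.5 in WTAkita and 75.7, 71.7 and 71.9 in Ctrl, ranges that overlap.

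**Figure D1:**
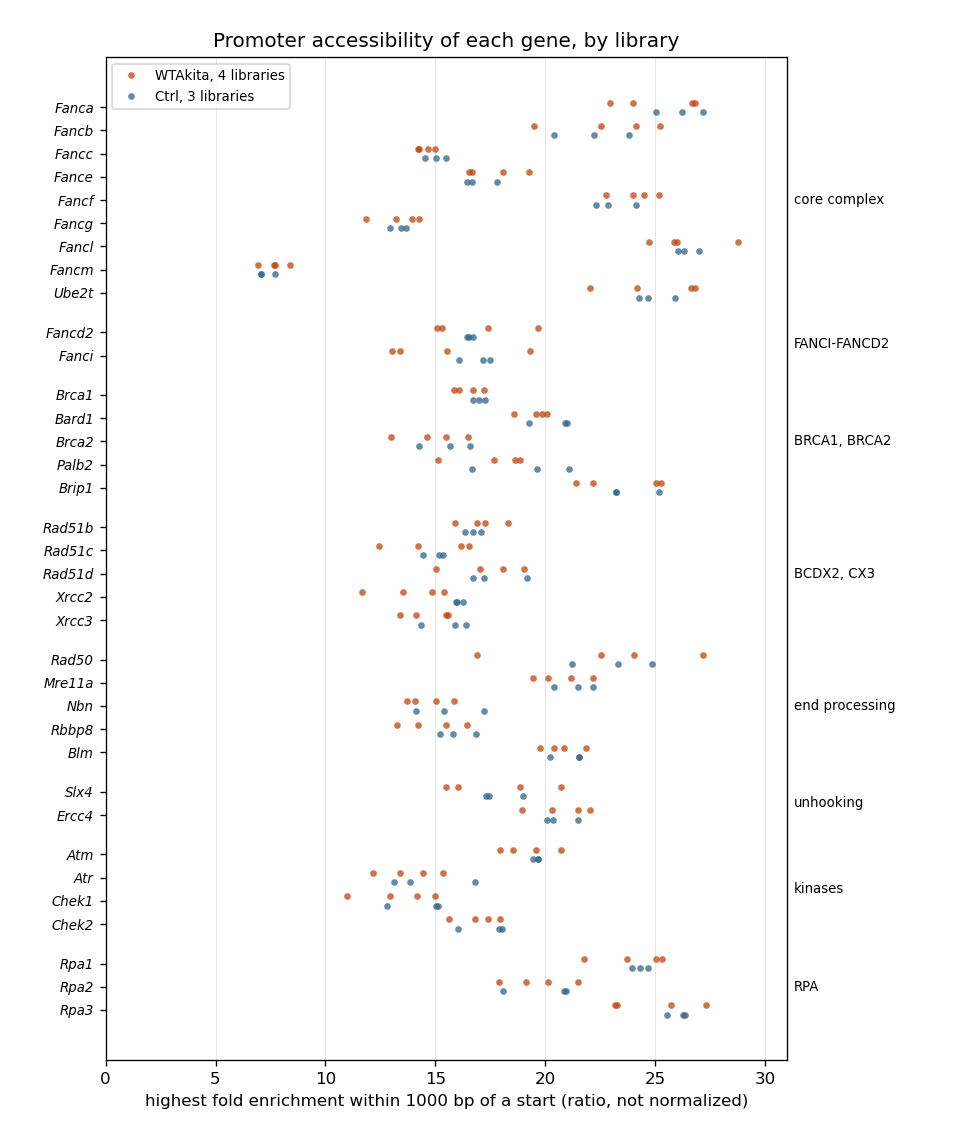
Highest fold enrichment within 1000 bp of a start site for each of the 35 genes (horizontal axis, a ratio to local background, not normalized between libraries), with 1 point per library, WTAkita above Ctrl, grouped by role. Fancm lies lowest in every library, between 6.91 and 8.40, and the ranges of both groups overlap for every gene except Xrcc2 (over all genes tested, 1.85% were lower and 0.42% higher in WTAkita without overlap on this scale).

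Genes of the core complex spanned the whole range of levels. Fancl, the RING subunit that carries the ligase activity, had fold enrichments of 25.8, 24.7, 26.0 and 28.8 in WTAkita and 26.3, 27.0 and 26.1 in Ctrl, and ranked at the 97.5th percentile. Fanca, a scaffold subunit, had 22.9, 24.0, 26.8 and 26.7 in WTAkita and 25.0, 26.2 and 27.2 in Ctrl. Ube2t, the ubiquitin-conjugating enzyme that works with FANCL, had 22.0, 24.2, 26.8 and 26.6 in WTAkita and 24.2, 25.9 and 24.7 in Ctrl. By the highest peak these 3 genes, which include the ligase and its conjugating enzyme, all lay above the 95th percentile, and their groups overlapped. Fancf, an adaptor within the complex, lay at the 93.1st percentile and Fancb, the X-linked subunit that pairs with FANCL, at the 90.1st. Fance, which contacts FANCD2, lay at 73.0, Fancc, its partner, at 59.3, and Fancg, which binds FANCA, at 50.3. The Fancl value came from a summit 1294 bp inside the gene, with a median of 26.1, against 11.6 at the summit nearest a start. Ranked by the nearest summit, Fancl lay at 56.1, Fanca at 97.6 and Ube2t at 96.8.

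Fancm, the DNA translocase that anchors the complex to damaged DNA, was the exception. Its fold enrichments were 6.91, 8.40, 7.66 and 7.70 in WTAkita and 7.09, 7.71 and 7.09 in Ctrl, less than those of any other of the 35 genes in every library, and its percentile was 21.8. The peak summit at Fancm held a median of 205 tags over a local background of 26.4, while that at Xrcc2 held 115 tags over 6.99 and had a median fold enrichment of 15.4. Atm had 594 tags over a background of 27.8 and Xrcc3 had 682 over 44.1, at median fold enrichments of 19.6 and 15.5. What sets the low ratio at Fancm was not tested. Ranked by summit pileup, Fancm lay at the 52.6th percentile. With the window widened to 2000 bp it took a stronger peak farther away and lay at 66.4.

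By the highest peak the FANCI-FANCD2 pair, the substrate of the ligase, was intermediate. Fancd2 had fold enrichments of 15.1, 15.3, 17.4 and 19.7 in WTAkita and 16.5, 16.7 and 16.4 in Ctrl. Fanci had 13.4, 15.5, 13.0 and 19.3 in WTAkita and 17.5, 17.2 and 16.1 in Ctrl, and showed the widest spread of the 35 genes, with a pooled within-group SD of 0.197 on the normalized log2 scale against a median of 0.0861 over the 35. The WTAkita libraries lay on both sides of Ctrl at each gene of the pair.

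Among BRCA1, BRCA2 and their partners, Brip1, the helicase bound by BRCA1, was the most accessible. It had 21.4, 22.2, 25.0 and 25.3 in WTAkita and 23.2, 23.2 and 25.2 in Ctrl, at the 94.3rd percentile. Bard1, the RING partner of BRCA1, followed at 83.3, with Palb2, the bridge between BRCA1 and BRCA2, at 72.8 and Brca1 at 67.6. Brca2, which acts on resected ends, was the lowest of them, with 13.0, 14.6, 16.5 and 15.5 in WTAkita and 15.6, 14.2 and 16.6 in Ctrl. The groups overlapped at all 5 genes.

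By fold enrichment the 5 genes whose products form the BCDX2 and CX3 complexes, which act in homologous recombination, lay close together. They ran between the 60.7th percentile for Rad51c and the 73.2nd for Rad51d. Rad51b lay at 70.6, Xrcc2 at 62.3 and Xrcc3 at 60.9. By summit pileup the 5 genes were spread from 34.9 at Xrcc2 to 99.4 at Xrcc3. Xrcc2 was the only one of the 35 genes whose raw values did not overlap between the groups, beside 1.85% of all genes tested with raw values lower in WTAkita without overlap and 0.42% with values higher. They were 11.6, 15.4, 13.5 and 14.9 in WTAkita and 16.0, 16.2 and 15.9 in Ctrl. As percentiles the Xrcc2 values did overlap, at 51.0, 67.9, 49.4 and 54.9 in WTAkita and 69.4, 63.2 and 62.3 in Ctrl, with WTAkita replicate 2 inside the Ctrl range.

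Genes for end processing fell into a high and a middle set. Rad50, the ATPase of the MRN complex that holds broken ends, had 16.9, 22.5, 24.0 and 27.2 in WTAkita and 21.2, 23.3 and 24.8 in Ctrl, at the 92.2nd percentile. Mre11a, the nuclease of that complex, lay at 87.5, and Blm, a helicase for resection and for undoing crossovers, at 86.4. Nbn, the third MRN subunit, lay at 59.7 and Rbbp8 (CtIP, which starts resection) at 64.5. By fold enrichment the subunits of this complex differed in level, while by summit pileup Rad50 lay at 62.1, Nbn at 60.2 and Mre11a at 83.0. The WTAkita values of Rad50 spanned more than the whole Ctrl range.

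Of the nuclease genes for unhooking, Ercc4 (XPF) lay at the 85.3rd percentile and Slx4, the scaffold that recruits it, at 73.7. Among the checkpoint kinases, Atm, which answers double-strand breaks, had 18.0, 18.5, 20.7 and 19.6 in WTAkita and 19.7, 19.7 and 19.4 in Ctrl, at the 82.9th percentile. Chek2, its effector kinase, lay at 71.7. Atr, which answers single-stranded DNA, lay lower, at 54.4, with Chek1, its effector, at 54.1. The single-stranded DNA binding complex RPA had the highest median percentile of the 8 role groups, at 94.4. Rpa3 lay at the 96.4th percentile, Rpa1 at the median and Rpa2 at 83.9. At Rpa3 the values were 23.3, 23.2, 25.7 and 27.3 in WTAkita and 25.5, 26.3 and 26.3 in Ctrl, which overlap.

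The order of these levels depended on the measure. Fold enrichment divides the summit by the local background of the same library, so a promoter in an open neighbourhood scores lower than its tag count. By summit pileup alone the median percentile was 75.1, and 28 of the 35 genes lay above the 50th. Single genes moved much more than the group: 8 ranked over 10 points higher by pileup, 10 over 10 points lower, and 17 stayed within 10 points. Xrcc3 moved most, to the 99.4th percentile by pileup against 60.9 by fold enrichment, with a median of 682 tags over a local background of 44.1. Brca1 ranked at 97.4 and Chek2 at 98.0 by pileup. In the other direction Fancd2 ranked at 36.1, Xrcc2 at 34.9, Fancl at 66.3 and Rad50 at 62.1. Fanca, Brip1, Rpa1 and Rpa3 ranked above the 90th percentile by both measures.

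**Figure D2:**
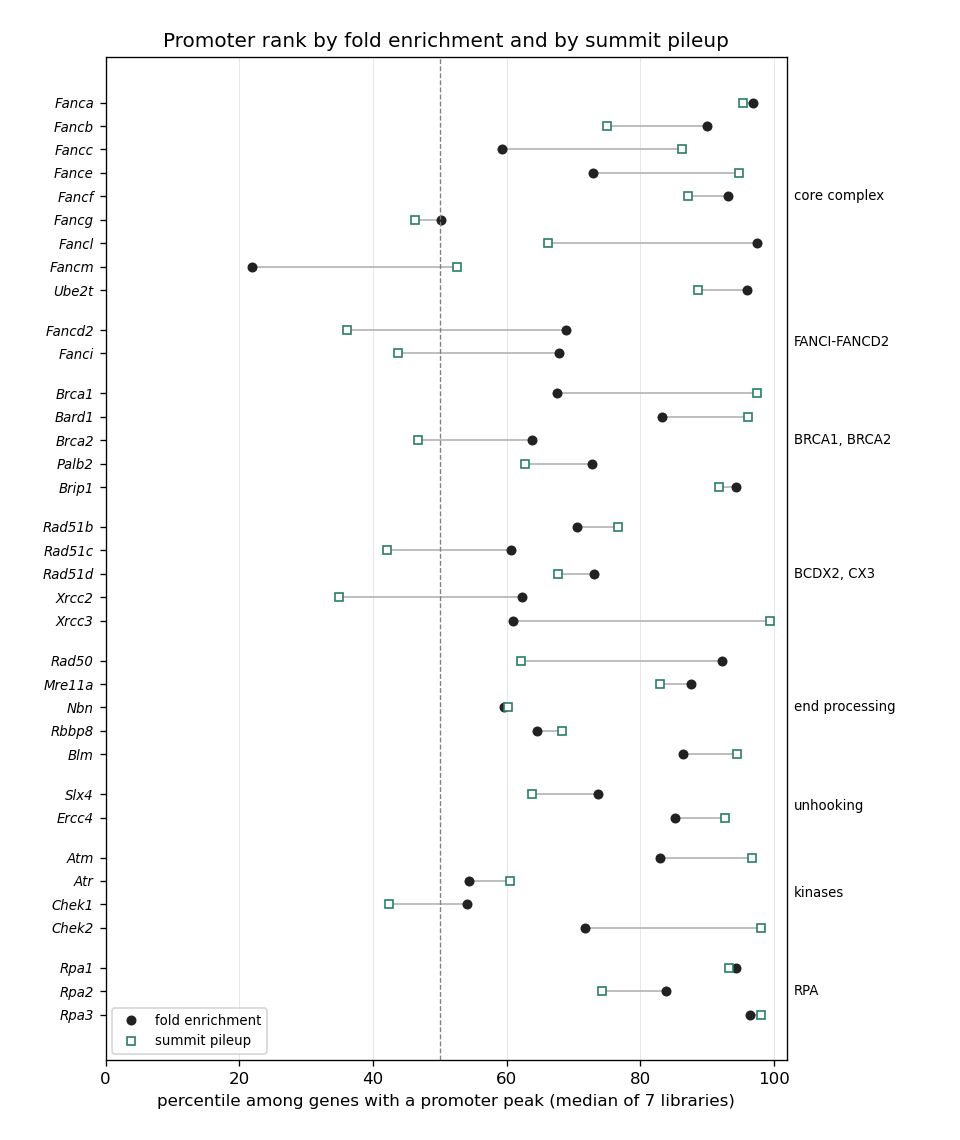
Percentile of each promoter among genes with a promoter peak, as the median of 7 libraries, by fold enrichment (filled circles) and by summit pileup (open squares), with a line joining both values of a gene and a dashed line at the 50th percentile. The longest lines are those of Xrcc3 (60.9 and 99.4), Fancd2 (68.9 and 36.1) and Fancl (97.5 and 66.3).

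The position of the peaks was closely repeated. For 26 genes the summits of all 7 libraries lay within 30 bp of each other, and the median spread was 18 bp. The median summit lay within 200 bp of an annotated start in 31 genes. Over all 35 genes it lay upstream of the nearest start in 26 and downstream in 9. Peaks of the 35 genes had a median width of 1030 bp, beside 908 bp over all genes tested and 968 bp over protein-coding genes.

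At a few genes the highest peak was not at the annotated 5′ end. Rbbp8 had no peak within 1000 bp of its 5′ end in any library, and its value came from an internal start of a protein-coding transcript, with the summit 24459 bp downstream. Fancl took its value from a summit 1294 bp inside the gene, beside further protein-coding starts. At Slx4 the summit lay inside the gene (median 21416 bp from its 5′ end) in all but WTAkita replicate 1, while the peak at the 5′ end itself had a median of 16.8, against 17.4 for the highest. At Fanci the highest peak lay farther inside the gene (median 5752 bp) in all but WTAkita replicate 3, with a median of 12.5 at the 5′ end against 16.1. At Fancc it lay at internal starts of noncoding transcripts in every library, at one 65616 bp from the 5′ end in the 4 WTAkita libraries and Ctrl replicate 1 and at one 165414 bp from it in Ctrl replicates 2 and 3. At Fanci, Fancc and Slx4 the values of the 7 libraries thus do not all come from the same site.

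A strong summit could also stand beside a weaker one that was closer to the start. In 21 genes the summit nearest a start was the highest in all 7 libraries, and in 9 genes it was so in none. The nearest summit of Brca1 had fold enrichments of 7.14, 7.39, 6.91 and 7.18 in WTAkita and 5.99, 8.42 and 7.16 in Ctrl, while its highest summit, about 720 bp upstream and beyond the Nbr1 start, had 16.1, 15.8, 16.7 and 17.2 in WTAkita and 17.3, 16.7 and 17.0 in Ctrl. At Rpa2 the nearest summit had a median of 5.48 and the highest 20.1. At Fance the nearest summit had a median of 4.37 and the highest 16.7. Under this choice Fance was the lowest of the 35 genes, at the 23.1st percentile, and the median of the group was 73.1.

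Sharing a promoter with a neighbour was common among these genes. Of the 35, 13 (37.1%) had the start of another protein-coding gene on the opposite strand within 1000 bp upstream of their 5′ end, beside 12.8% of the 15825 protein-coding genes with a peak in every library and 9.44% of all 21938 protein-coding genes. The pairs, with the distance between starts, were Fancd2 and Emc3 at 30 bp, Palb2 and Dctn5 at 56 bp, Mre11a and Ankrd49 at 104 bp, Rpa1 and Smyd4 at 109 bp, Rad51c and Tex14 at 111 bp, Rpa3 and Umad1 at 115 bp, and Fancf and Gas2 at 160 bp. Wider pairs were Brca1 and Nbr1 at 194 bp, Chek2 and Hscb at 202 bp, Fancb and Mospd2 at 217 bp, Xrcc3 and Zfyve21 at 297 bp, Atm and Npat at 307 bp, and Rad51b and Zfyve26 at 978 bp. Brip1 and Atr each faced an antisense noncoding gene, Brip1os at 177 bp and 1700065D16Rik at 80 bp. Apart from Brca1, every one of these genes had the same value as its partner in all 7 libraries, because both windows took the same peak. A fold enrichment cannot be assigned to one gene of such a pair. At Rad51b the summit lay at -1008 bp from its own start, near that of Zfyve26.

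Genes of the 35 with a protein-coding partner had a median percentile of 72.8 and those without had 73.1, beside 67.8 and 56.3 over all protein-coding genes. Among these 35 genes the level was thus about the same with and without a partner, which was not tested.

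Promoter sequence was read from 250 bases before to 50 after the RefSeq start, which the table gave for 29 of the 35 genes. Entries for Fancd2, Nbn, Rad50, Rad51d, Rbbp8 and Xrcc2 were not used here. CCAAT was found on either strand in 21 of 29 genes (72.4%), beside 41.9% of 12168 protein-coding genes with a peak in every library. TTTCCCGC was found in 5 of 29 (17.2%) beside 2.13%, in Bard1, Brca2, Chek2, Fancg and Rad51c. Of these 5, only Chek2 also held CCAAT. GCATGCGC was found in 13.8% beside 5.33%, CCGGAAG (an ETS-type element) in 27.6% beside 17.3%, and TGACGTCA (the CRE) in 6.90% beside 3.30%. GGGCGG was found in 58.6% beside 65.6%, TTTGAA (the CHR element) in 6.90% beside 14.2%, and TTTGGCGC, another E2F-type element, in 0 beside 1.00%. GGGCGG can overlap CCAAT on its reverse strand, as in ATTGGGCGG, and a gene with more than 1 RefSeq start was counted once if any of its windows held the motif. The median GC content was 59.7% against 60.3%, and the median ratio of observed to expected CpG was 0.90 against 0.72. These are counts of letters and no site was tested.

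**Figure D3:**
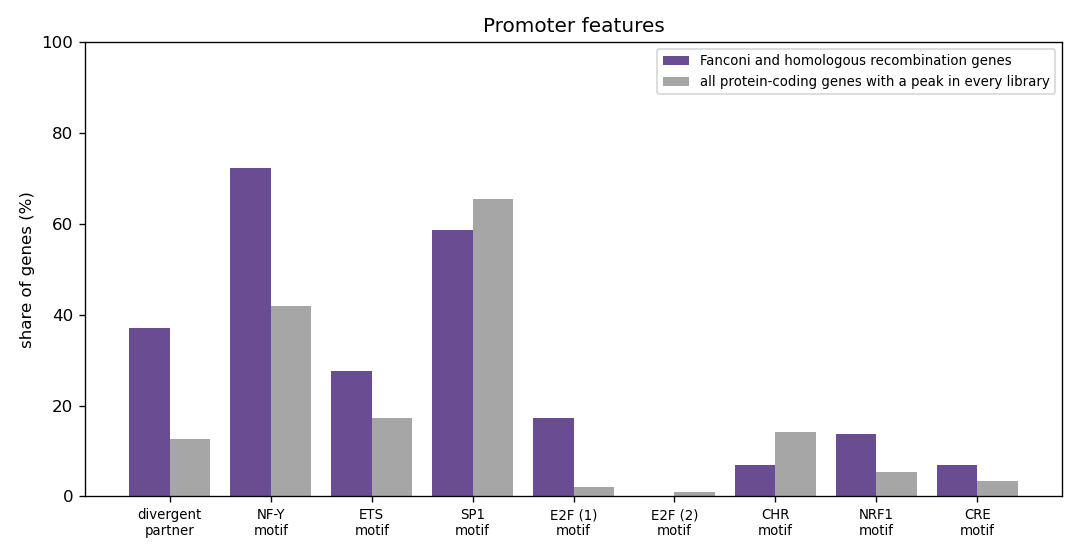
Share of genes (vertical axis, percent) with a protein-coding divergent partner within 1000 bp and with each motif in the RefSeq window, for the Fanconi and homologous recombination genes (35 for the partner, 29 for motifs) and for all protein-coding genes with a peak in every library. The shares differ most for the NF-Y motif (72.4% and 41.9%), the divergent partner (37.1% and 12.8%) and the first E2F motif, TTTCCCGC (17.2% and 2.13%). The second E2F motif is TTTGGCGC.

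The comparison of WTAkita with Ctrl asked whether a diabetic pregnancy left these promoters more or less open in adult LSK cells. Fold enrichments were put on a log2 scale, quantile-normalized over the 22871 genes and tested with limma. None of the 35 promoters passed an adjusted p of 0.05 in limma in either direction, where the share of all genes called was 0.00437% higher and 0.00437% lower, and 0 of 35 had an unadjusted p under 0.05, beside 1.81% higher and 2.05% lower over all genes. Normalized values did not separate the groups at any of the 35, beside 2.67% of all genes higher and 2.05% lower without overlap. Differences were above 0 in 22 genes and below 0 in 13, beside 12183 above and 10688 below of all 22871 genes. The median of the 35 was 0.015, beside 0.0068 over all genes tested. Differences of the 35 ran between -0.17 at Xrcc2 and 0.12 at Fancm on the log2 scale, and the median standard error was 0.063. The normalized spread between libraries of one group had a median SD of 0.0861 at these promoters and 0.103 over all genes. A missed threshold does not show that the groups are equal: a difference of the size of these standard errors was not detectable with 4 and 3 libraries.

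**Figure D4:**
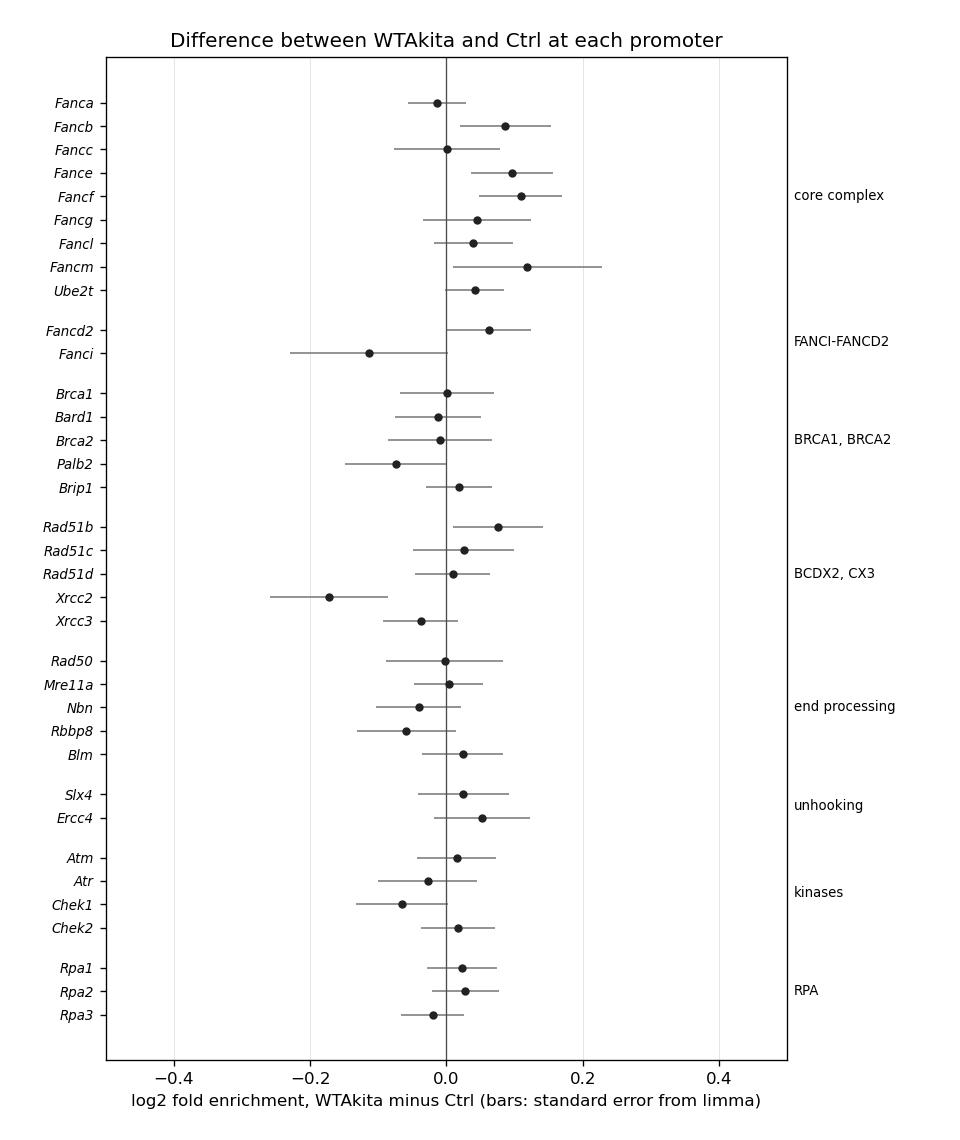
Difference of log2 fold enrichment, WTAkita minus Ctrl, for each of the 35 promoters after quantile normalization, with the standard error from limma as bars. All values lie between -0.17 (Xrcc2) and 0.12 (Fancm), and the bars of most genes cross 0.

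The gene of each role with the largest statistic is given in full, as mean normalized log2 fold enrichment ± SD over 4 WTAkita and 3 Ctrl libraries. Xrcc2 had 3.81 ± 0.157 in WTAkita and 3.98 ± 0.0687 in Ctrl, a difference of -0.17 (standard error 0.0859, limma unadjusted p = 0.0715, adjusted p = 0.997). Without WTAkita replicate 2 its unadjusted limma p was 0.00572, and it did not pass the adjusted threshold. Fancf had 4.61 ± 0.102 in WTAkita and 4.50 ± 0.0582 in Ctrl, a difference of 0.11 (standard error 0.061). Both are named for the size of their statistic and neither passed. Fancd2 differed by 0.06 (4.08 ± 0.0766 in WTAkita, 4.02 ± 0.0708 in Ctrl) and Palb2 by -0.07 (4.15 ± 0.118 in WTAkita, 4.22 ± 0.101 in Ctrl). Rbbp8 differed by -0.06 (3.91 ± 0.0911 in WTAkita, 3.97 ± 0.107 in Ctrl) and Ercc4 by 0.05 (4.39 ± 0.124 in WTAkita, 4.34 ± 0.0677 in Ctrl). Differences of this size are under the SD between libraries of one group at each of these 4 genes. Chek1 differed by -0.06 (3.74 ± 0.0807 in WTAkita, 3.81 ± 0.0616 in Ctrl) and Rpa2 by 0.03 (4.32 ± 0.0413 in WTAkita, 4.29 ± 0.0453 in Ctrl). The adjusted p from limma was 0.997 for each of these 8 genes. Some of these values moved with the libraries and with the peak taken. Fancf differed by 0.06 without WTAkita replicate 1 and by 0.14 without WTAkita replicate 4, and Xrcc2 by between -0.25 (without WTAkita replicate 2) and -0.13 (without WTAkita replicate 3). Rbbp8 ranged from -0.12 without Ctrl replicate 2 to -0.02 without Ctrl replicate 1, and was 0.09 by the nearest summit. Rpa2 was -0.08 by the nearest summit and -0.02 without normalization.

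Of the 9 core complex genes, 8 had a difference above 0 and Fanca one below 0 (-0.01), with a median of 0.04. Over all 22871 genes tested, 12183 had a difference above 0. The counts above 0 were 1 of 2 for FANCI-FANCD2, 2 of 5 for BRCA1, BRCA2 and partners, 3 of 5 for the BCDX2 and CX3 genes, 2 of 5 for end processing, 2 of 2 for unhooking, 2 of 4 for the kinases and 2 of 3 for RPA. None of these groups held a gene that passed the test.

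Accessible sites within the gene bodies were examined as well, more than 1000 bp from any annotated start. Peaks of all libraries were joined where they overlapped, and 135 such regions lay inside the 35 genes in at least 1 library and 66 in all 7. The 66 lay in 21 genes, 56 in introns and 10 touching an exon. Rad51b, a gene of 517409 bp, held 22 and Fancc, of 212236 bp, held 11, while Blm held 4 and 9 genes held none in any library. The 66 regions had a median fold enrichment of 7.60, beside 8.29 over all 108032 regions called in every library, promoters included.

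The strongest of these sites were intronic. A Rad51b site at chr12:79358612-79359274, 61661 bp from the 5′ end, had fold enrichments of 19.2, 20.5, 24.8 and 28.0 in WTAkita and 23.5, 28.7 and 24.4 in Ctrl. A further Rad51b site at chr12:79612543-79613313 had 19.1, 20.2, 23.4 and 24.3 in WTAkita and 22.3, 23.9 and 26.7 in Ctrl. An Ercc4 site at chr16:13117216-13117757 had 18.0, 18.2, 28.1 and 25.2 in WTAkita and 18.2, 23.8 and 25.8 in Ctrl. These 3 were as open as the upper promoters of the set, and the groups overlapped at each.

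Between the groups, 30 of the 66 regions had a difference above 0 and 36 below 0, beside 56282 above and 51750 below of all 108032 regions. The 66 had a median of -0.02 and a range from -0.37 to 0.34 on the log2 scale. None passed an adjusted p of 0.05 from limma, where the share over all regions was also 0% (smallest adjusted p among the 66 of 1.00). At an unadjusted p under 0.05 there were 2 higher and 3 lower of 66, beside 1.76% and 2.1% of all regions. The 2 higher ones lay in Fanci (difference 0.28) and Rad51b (0.18), and the 3 lower ones in Brip1 (-0.26), Fanci (-0.37) and Rad50 (-0.32). These regions, named after their values were seen, do not go one way within Fanci, where the higher region at chr7:79421718-79422329 and the lower one at chr7:79422865-79423559 are neighbours. After normalization the groups did not overlap in 1 region higher in WTAkita, in Fancc, and in 2 lower, in Blm and in Nbn, beside 2.45% and 2.26% of all regions. Raw fold enrichments overlapped at the Fancc and Nbn regions and not at the Blm region, where they were 6.05, 6.65, 8.48 and 9.15 in WTAkita and 9.31, 9.68 and 9.21 in Ctrl. The difference there was -0.26, with a standard error of 0.129. Another Blm region, at chr7:80530745-80531163, had raw values that were higher in WTAkita without overlap. They were 3.31, 3.10, 2.97 and 3.03 in WTAkita and 2.90, 2.55 and 2.32 in Ctrl, with a difference of 0.30 (standard error 0.161). The share of all regions without raw overlap is not given here, so the raw separation at these regions is not a result about Blm.

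No gene body region was called in every library of one group and in none of the other. Of the 135 regions, 23 were called in WTAkita only, 18 of them in a single library, and 6 in Ctrl only. WTAkita replicate 3, the library with the most peaks, held 10 of those 18, and WTAkita has 1 library more than Ctrl. The same counts over all merged regions are not given here, so 23 against 6 is not a result about these genes.

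**Figure D5:**
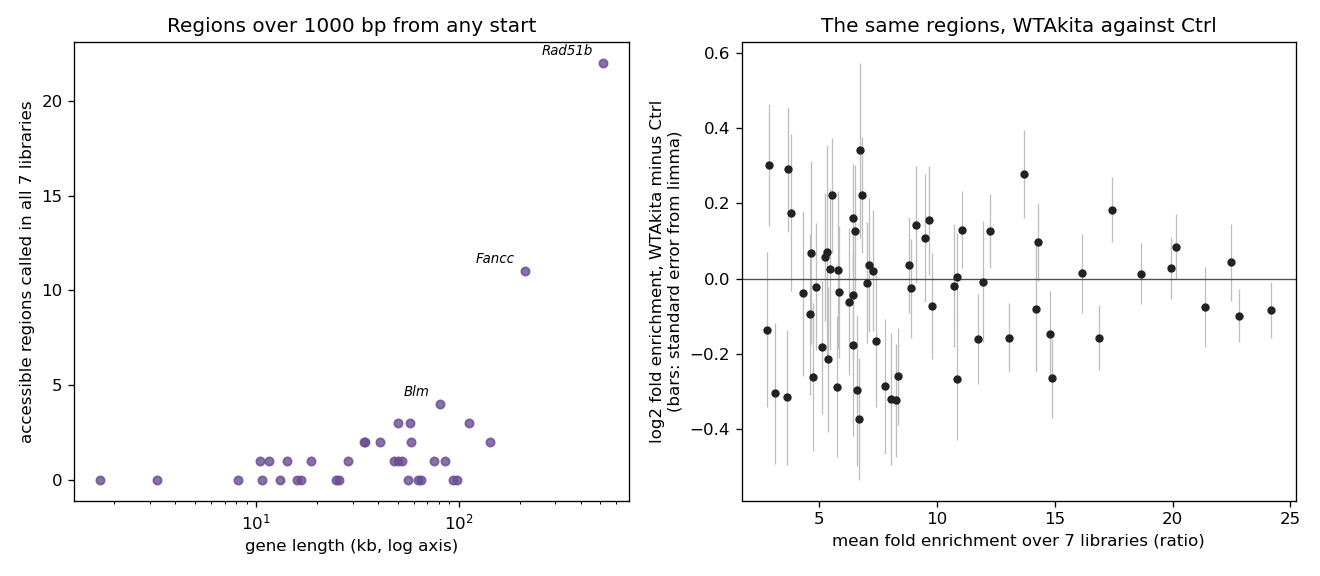
Left, the number of accessible regions called in all 7 libraries inside each of the 35 genes and over 1000 bp from any start, against gene length in kb on a log axis, with Rad51b (22), Fancc (11) and Blm (4) named. Right, the difference of log2 fold enrichment, WTAkita minus Ctrl, of the 66 regions against their mean fold enrichment, with standard errors from limma as bars. The differences scatter on both sides of 0 at every level.

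Genes that work beside these 35 gave a similar picture. Of 60 further genes of crosslink repair and recombination, among them Fan1 and Rad54l, all had a promoter peak in every library, with a median percentile of 71.5. Differences were above 0 in 33 and below 0 in 27, with a median of 0.0095. None passed the adjusted test in limma, and 0 higher and 1 lower had an unadjusted p under 0.05. That one was Tonsl, a replication-associated repair factor, with a difference of -0.16 (standard error 0.0551, limma adjusted p = 0.997). Of 12 genes of nonhomologous end joining, the repair route that rejoins ends without a template, all had a peak in every library, at a median percentile of 64.9. Of these, 8 had a difference above 0 and 4 below 0, and 0 had an unadjusted or adjusted p under 0.05 in limma.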

How the data were processed

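ATAC-Seq peaks of LSK cells were analysed in 4 WTAkita and 3 Ctrl libraries. The submitters' processing notes list MACS2 2.1.4 for peak calling, Bowtie2 2.3.4.1 for alignment (mm10), and cutadapt 1.9.1 and Trim Galore 0.4.2 for trimming. Per the study's methods, duplicate reads were discarded and peaks were called with reads shifted and extended to centre on the cut sites, and no input control is named. Each library has its own peak list. The deposited files hold 1 line per summit. The deposited fold enrichment is a ratio, tags piled up at the summit over tags that the surroundings predict, each with 1 tag added by the caller. The deposited −log10 p and −log10 q values state the caller's own significance, and the deposited score is a rescaled integer that was not used for any result. The deposited lists give no read counts per gene, so the depth of each library and each summit pileup were estimated from fold enrichment and p, assuming a 150 bp extension and an effective genome of 1870000000 bp, with values within 0.02 of an integer taken as whole tags.

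The 35 genes and the other gene lists were chosen with earlier results of these data known, and 1 gene of the list of further repair genes is not reported here. A gene took the highest fold enrichment of any peak touching 1000 bp around a GENCODE vM21 start. Values of the 22871 genes with a peak in every library were set on the log2 scale with no pseudocount, quantile-normalized and tested with limma 3.58.1 (R 4.3.3, trend, no covariate, two-sided), with Benjamini-Hochberg adjustment over all genes and calls at 0.05. Gene body regions were tested likewise over 108032 merged regions. All 35 genes are named with their levels. Differences are given in full for the gene with the largest absolute moderated statistic in each of 8 roles and for genes without overlap, and gene body regions for the 3 strongest and any that passed. The fit was also run on simulated data whose changes were larger than every difference at the 35 promoters. That run does not show whether differences of the reported sizes could be detected. Python 3.11.15, numpy 2.4.6, pandas 2.3.3, scipy 1.17.1 and matplotlib 3.10.9 were used. Alternatives covered normalization, pileup, peak threshold, window, overlap, choice of peak and start, filter, test, covariate, replicate block and left-out libraries. The main fit did not pair libraries by replicate number.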

Additional observations from a re-analysis of the deposited data

How the results depend on the processing

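None of the 35 promoters and none of the 66 gene body regions passed the adjusted limma test under any alternative that was run, with each library left out in turn included. The median difference of the 35 promoters was 0.015 on the log2 scale. It was -0.033 without normalization, where the median of all genes was -0.041, and -0.15 by summit pileup over background, where the median of all genes was -0.13 and all 35 lay below 0, so relative to all genes the shift was -0.02. Leaving out 1 library at a time gave medians between -0.0051 and 0.034. The median percentile was 75.1 by summit pileup, lay between 72.6 and 73.8 with 1 library left out, and was 73.1 by the nearest summit, an alternative that was added for the ranks after seeing the data. Genes called over the whole table numbered 2, with 0 when the summit had to lie in the window, 19 by the nearest summit, 17 by summit pileup, 10 without WTAkita replicate 4, and 7 without WTAkita replicates 1 and 2 and Ctrl replicate 1, the 3 libraries with the lowest medians (none of the 35 in any of these). With the replicate block, 10 genes and 6 regions were called over the whole tables, again none of the 35 genes. Of the 35, 2 had an unadjusted limma p under 0.05, beside 1492 of all 22871 genes. Same-numbered libraries correlated by 0.244, 0.0016 and 0.082 in their deviations from the group means, and differently numbered ones by between -0.193 and 0.123. What a replicate number marks is not stated, so whether the numbers pair the libraries is not known. Single genes passed an unadjusted limma threshold of 0.05 under some alternatives: 2 without those 3 libraries, Palb2 with the smallest value (0.0255), Xrcc2 without WTAkita replicate 2 (0.00572) and Fancf without WTAkita replicate 4 (0.0452). Over all genes tested, 966 of 22871 passed it without those 3 libraries. The counts were 767 of 22952 without WTAkita replicate 2 and 1060 of 22910 without WTAkita replicate 4. Of the 8 differences given in full, the direction turned by the nearest summit for Rbbp8 (0.09) and Rpa2 (-0.08), without normalization for Rpa2 (-0.02), without those 3 libraries for Rpa2 (-0.02) and Ercc4 (-0.01), and by summit pileup, where all genes shifted, for Fancf (-0.02), Fancd2 (-0.03), Ercc4 (-0.15) and Rpa2 (-0.14). Ercc4 was -0.00098 without WTAkita replicate 2.

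Precision was limited by 4 and 3 libraries and by fold enrichment from peak lists, which omit sites below the caller's threshold and set a promoter against its own surroundings.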
